A study of Mus musculus with 2 samples.

Results

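The genes described here encode the enzymes that start, pass on and remove ubiquitin in muscle: the activating E1 enzymes, the conjugating E2 enzymes and the deubiquitinases (DUBs). Members were chosen by gene symbol, as names beginning with Uba and a digit, Ube2, Usp and a digit, Uch or Otud. This gave 82 of the 10543 genes with a single symbol: 4 E1 genes, 27 E2 genes, 50 genes counted as DUBs, and 1 gene of none of these classes. Usp18 was left out. Symbols do not always match enzymes. Ube2cbp encodes a protein that binds an E2, and Usp6nl encodes a GTPase-activating protein. Usp39 encodes a splicing factor, and Usp53 and Usp54 have long been classed as inactive. Those symbols were kept in the counts, and the main values without them are given below.

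Poly(A) RNA came from thigh skeletal muscle of B6C3F1 mice, a hybrid strain, aged 26 months. The calorie restriction (CR) group had eaten about 40% fewer calories for 25 months, on a diet enriched to keep protein, vitamin and mineral intake per body weight close to that of the other group. The control group ate the control diet. Each group is 1 library of 76-bp paired-end reads, so no difference has a replicate check, no test across samples can be made and no p-value is given. The sources used here do not say how many mice stand behind a library. Values are FPKM, fragment counts divided by transcript length and by library size, which may be compared between genes because they are per length. Their scale in this table is high and unexplained, and the depth of the libraries is unknown. The log2 ratio of a gene is that of its FPKM + 1 in CR over its FPKM + 1 in control. A fold is this ratio without the logarithm, and it understates the difference where a gene is low.

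Ubiquitin is a small protein that is joined to other proteins. An E1 activates it with ATP, an E2 carries it as a thioester, and a ligase (E3) directs the transfer to a substrate. DUBs cut it off again, trimming chains at the proteasome, recycling free ubiquitin or editing signals on receptors and chromatin. Related modifiers, among them SUMO, NEDD8, UFM1 and ISG15, have E1 and E2 enzymes of their own. In wasting muscle much of the loss of contractile protein runs through this pathway.

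On balance E2 genes stood slightly higher and DUB genes slightly lower in the CR library. The median log2 ratio was 0.16 over the 27 E2 genes and -0.20 over the 50 DUB genes, a difference of 0.35, beside -0.03 over all 10533 genes whose mean reached 1 FPKM. The sizes depend on which genes count. Among genes with a mean of 100 FPKM or more the E2 median was 0.043 over 23 genes and the difference 0.21. Without members that share over 10% of their sequence windows with another gene, the E2 median was 0.0625 over 19 genes and the difference 0.29. Leaving out the symbols named above that do not match their class gave an E2 median of 0.11 over 26 genes. The DUB median was then -0.17 over 46 genes and the difference 0.28. Rescaling both libraries to the same total without the 50 genes highest in level gave an E2 median of 0.084 and a DUB median of -0.27. Of all pairs of an E2 gene and a DUB gene, the E2 gene had the higher ratio in 933 of 1350 (69.1%). The log2 ratio was above 0 for 17 of 27 E2 genes (63.0%) and 18 of 50 DUB genes (36.0%), against 47.9% of all genes tested. With that rescaling these became 14 of 27 E2 genes and 14 of 50 DUB genes, against 42.6% of all genes. Summed over genes, E2 transcripts came to 12352 FPKM in the CR library and 11526 FPKM in the control library. DUB transcripts came to 23100 FPKM in the CR library, against 25138 FPKM in the control library. The sum over all genes tested was also higher in CR, at 7647083 FPKM against 6693413 FPKM in control. That is a ratio of 1.14, against 1.07 for the E2 sum and 0.92 for the DUB sum. So the E2 sum was higher in CR by less than the sum of all genes. The class differences are small shifts between single libraries, and the genes of a class are not replicates of the diet.

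**Figure D1:**
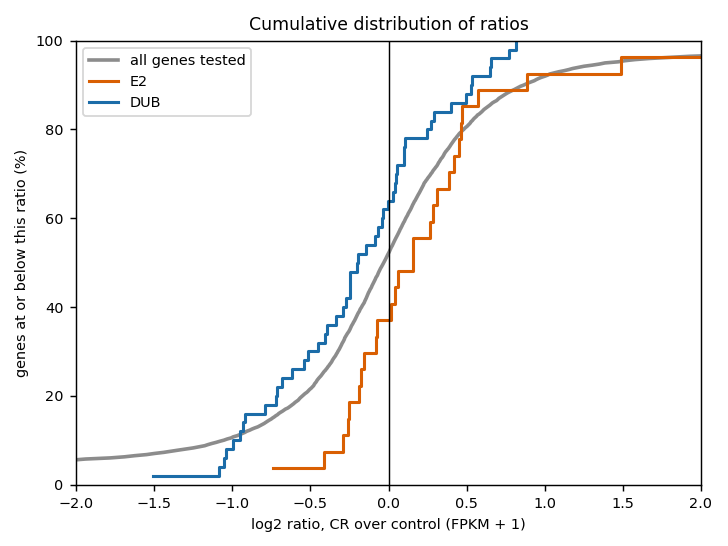
Cumulative share of genes (y axis, %) at or below each log2 ratio of CR over control (x axis, cut at 2 on either side), for E2 genes, DUB genes and all genes tested. The E2 curve lies right of the DUB curve over the middle of the plot, with medians of 0.16 for E2 genes and -0.20 for DUB genes, against -0.03 for all genes.

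Large differences were few. Of the 82 members 2 passed 2-fold on the higher side in CR (2.44%, against 8.01% of all genes tested), and 4 were lower by that factor (4.88%, against 10.7%). With that rescaling the counts were 2 higher and 7 lower, but ratios of all genes fell too, to a median of -0.10. The shares of all genes past 2-fold after rescaling were not counted. One of the higher genes, Ube2cbp, passed only because it was listed at 0 in control, where a 0 can be an estimate that failed. Among the 81 members above 0 in both libraries 1 was at least 2-fold higher (1.23%, against 6.15% of all such genes), which was Ube2t. The lower ones in the same set were Usp14, Uchl5, Usp40 and Usp6nl (4.94%, against 6.85%). At a threshold of 1.5-fold, 3 of 27 E2 genes were higher (11.1%, against 16.4% of all genes tested) and 1 was lower (3.70%, against 18.8%). Without Ube2cbp 2 of 26 were higher (7.69%, against 15.1% of genes above 0 in both libraries). Of the 50 DUB genes 4 were higher (8.0%) and 13 were lower (26.0%). With the same rescaling 2 were higher and 15 lower, and the shares of all genes were again not counted. Of the 46 DUB genes whose symbol matches the class, 4 were higher (8.70%) and 11 lower (23.9%), against 16.4% and 18.8% of all genes tested. Most members are well expressed, with means of 100 FPKM or more for 74 of 82. Among genes that abundant, 48.9% of all genes had a ratio above 0. The shares of all genes were 13.5% at least 1.5-fold lower and 13.4% higher, and 1 of 23 E2 genes was higher and 1 lower, against 4 of 46 DUB genes higher and 10 lower. The corresponding shares at 2-fold were 5.29% lower and 4.95% higher, with 3 members lower and 1 higher.

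**Figure D2:**
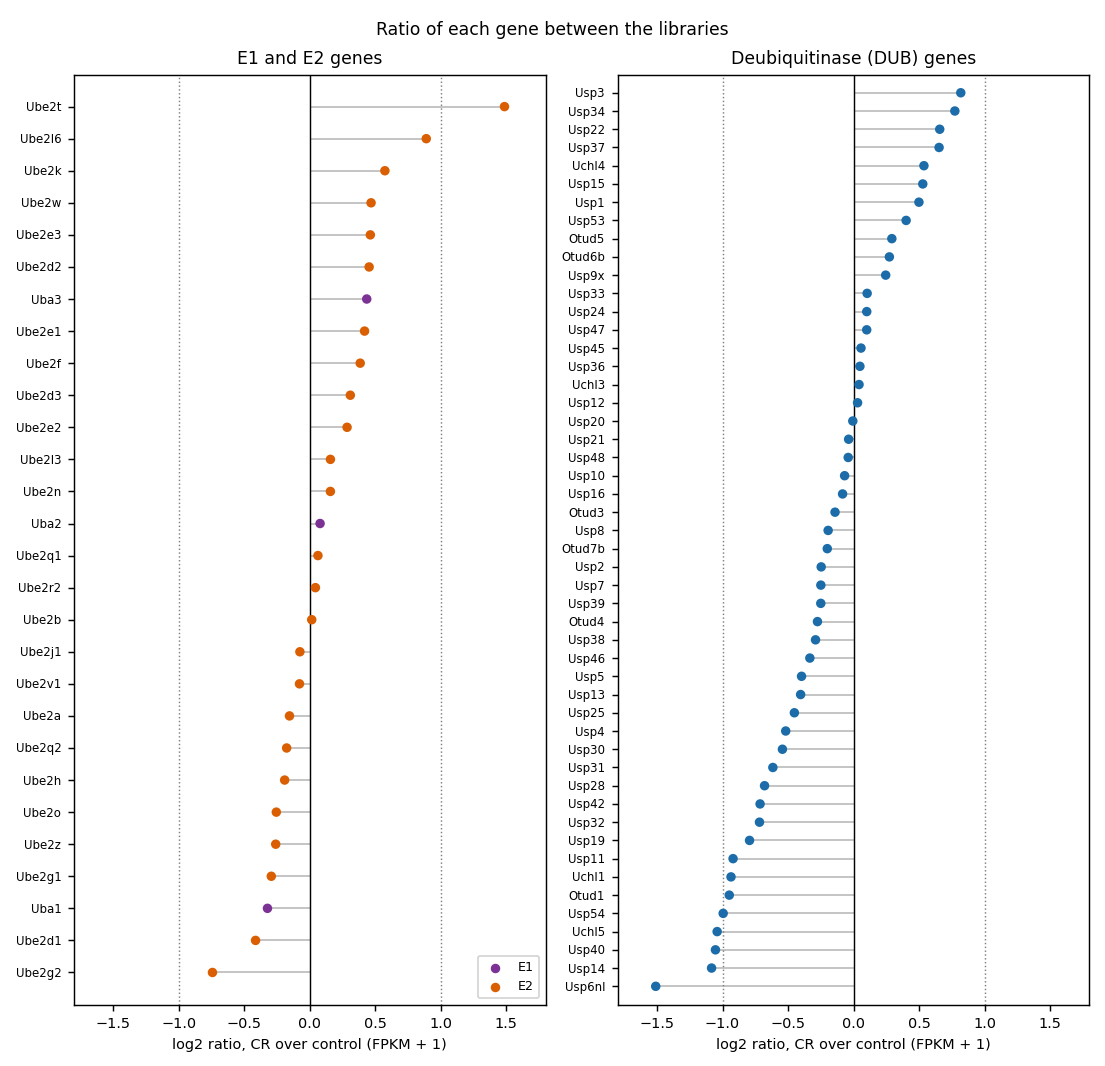
Log2 ratio of CR over control (x axis) for each member, with E1 and E2 genes on the left and DUB genes on the right, ordered by ratio, and dotted lines at 2-fold. Ube2cbp, listed at 0 in the control library, has no ratio drawn, and 3 members not reported singly are left out. Ube2t stands alone past 2-fold on the higher side, and Usp14, Usp40, Uchl5 and Usp6nl lie past it on the lower side.

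The gene starts of a member past 2-fold on the higher side and of another on the lower side are shown here. Ube2t, which loads ubiquitin onto the Fanconi anaemia DNA repair complex, had the highest ratio of any member above 0 in both libraries. Uchl5, a DUB of the proteasome cap, was among the lowest. Their promoter windows from RefSeq (GRCm38.p6), 250 bases before to 50 bases after the start, lie at chr1:134962315-134962614 on the plus strand for Ube2t and at chr1:143777028-143777327 on the plus strand for Uchl5. Capitals mark the letters of motifs found by a search of both strands. The CCAAT box was searched by the letters of its name, and the GC box was written as GGGCGG. The core of the antioxidant response element was taken to be TGACNNNGC for this search. The FoxO site, bound by factors active in fasting, was searched in the form GTAAACA on each strand. The E-box was given the palindromic form CACGTG, and the CHR element of cell cycle genes was looked for under the form TTTGAA instead.
Ube2t: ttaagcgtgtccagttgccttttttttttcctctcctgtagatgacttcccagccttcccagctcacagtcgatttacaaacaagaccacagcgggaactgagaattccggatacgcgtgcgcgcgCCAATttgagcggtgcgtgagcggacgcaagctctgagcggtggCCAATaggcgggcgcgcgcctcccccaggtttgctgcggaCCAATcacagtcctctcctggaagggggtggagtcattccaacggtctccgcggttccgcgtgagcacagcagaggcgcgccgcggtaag
Uchl5: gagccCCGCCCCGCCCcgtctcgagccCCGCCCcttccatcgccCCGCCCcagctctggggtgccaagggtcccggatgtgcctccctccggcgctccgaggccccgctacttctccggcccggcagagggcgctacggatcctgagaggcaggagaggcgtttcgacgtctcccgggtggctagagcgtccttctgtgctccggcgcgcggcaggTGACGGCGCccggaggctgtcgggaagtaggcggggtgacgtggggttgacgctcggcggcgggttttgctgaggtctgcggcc
The Ube2t window holds 3 CCAAT boxes and no other of these motifs. At least 3 were found in 4.87% of the 9731 promoter windows of genes in the FPKM table. The Uchl5 window holds 4 GC boxes, of which the leading pair share a base, and 1 antioxidant response element core. At least 4 GC boxes were found in 11.8% of those windows, and the antioxidant core in 14.6%. The window of Usp40, which had a lower ratio than Uchl5, is not printed. It holds a CHR element, found in 11.2% of windows of genes in the table, and no other of these motifs. Over the classes, the antioxidant core was in 5 of 29 E2 windows (17.2%) and 12 of 41 DUB windows (29.3%). The CCAAT box was in 17.2% of E2 and 22.0% of DUB windows, against 36.9% of windows of genes in the table. For the GC box the shares were 82.8% of E2 and 75.6% of DUB windows, against 63.2%. The FoxO site was in 1 E2 window, that of Ube2h, and 1 DUB window, that of Otud1, against 2.40% of windows of genes in the table. RefSeq windows were found for 63 of the 82 members. A match is a string of letters and not a bound site.

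Of the E1 genes, none was 2-fold apart. Uba1, the main ubiquitin E1, stood at 622 FPKM in the CR library and 778 FPKM in the control library, a log2 ratio of -0.32. Uba3, the catalytic subunit of the NEDD8 E1, was the most abundant E1 gene in both libraries, at 1116 FPKM in CR and 826 FPKM in control. Uba2, its SUMO counterpart, stood at 354 FPKM in CR against 335 FPKM in control. So Uba1 was lower in CR and Uba3 higher, by less than 2-fold each, while Uba2 was nearly level, with a log2 ratio of 0.08.

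The partners of these E1 genes, taken from lists of the modifier pathways, gave a mixed picture. In the NEDD8 pathway all 5 genes looked at were higher in the CR library, where 47.9% of all genes tested were. Ube2m, the other NEDD8 E2, is not among the 5, because its locus is merged with Chmp2a. That locus stood at 1134 FPKM in CR and 1049.9 FPKM in control. Nae1, the regulatory subunit of the same E1, stood at 1083 FPKM in CR and 542 FPKM in control, just under 2-fold. The NEDD8 E2 Ube2f stood at 634 FPKM in CR against 485 FPKM in control, and Nedd8 itself at 1005 FPKM in CR against 695 FPKM in control. Senp8, the protease that matures NEDD8 and removes it, was at 137 FPKM in CR and 41.1 FPKM in control (3.28-fold). In the SUMO pathway the directions differed. Sae1, which pairs with Uba2, stood at 563 FPKM in CR and 777 FPKM in control, whereas the modifier gene Sumo3 stood at 374 FPKM in CR and 364 FPKM in control. In the UFM1 pathway the E2 Ufc1 stood at 733 FPKM in CR and 538 FPKM in control, and Ufm1 at 495.5 FPKM in CR and 483 FPKM in control.

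**Figure D3:**
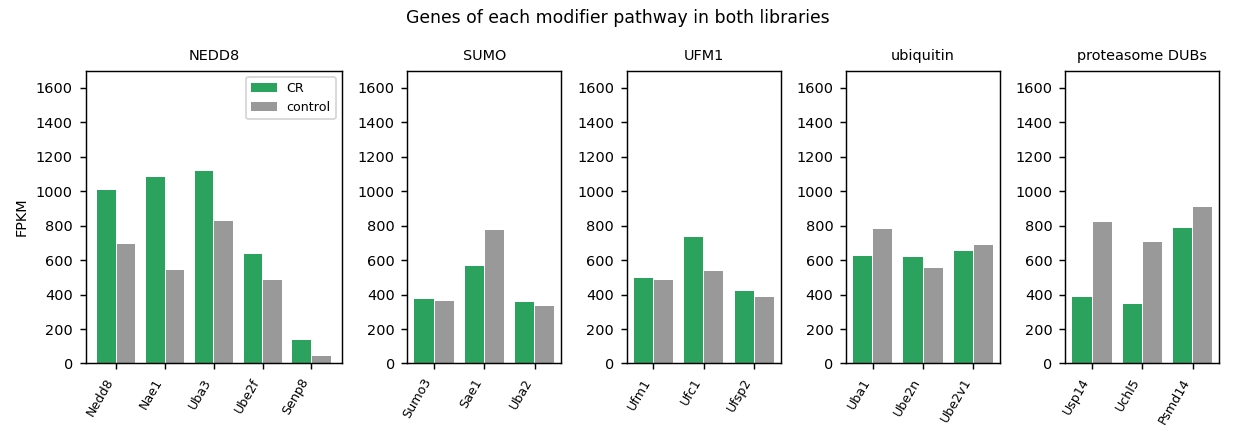
FPKM (y axis) of genes of the NEDD8, SUMO, UFM1 and ubiquitin pathways and of the proteasome-bound DUBs, with the CR library as the left bar and the control library as the right bar of each pair, 1 library each. The 5 NEDD8 genes drawn, which leave out Ube2m, are all higher in CR, and the proteasome DUB genes Usp14, Uchl5 and Psmd14 are all lower.

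Among E2 genes the most abundant were Ube2d3 and Ube2b, in that order in both libraries. Ube2d3 (chr3:135101230-135131152, mm9), a broadly acting E2 that works with many ligases, stood at 2071 FPKM in CR and 1670.4 FPKM in control. Its family and the related Ube2e genes build the initial ubiquitin on substrates. They were listed together with Ube2w and Ube2l3, 8 genes in all. Of these 7 had a ratio above 0 (87.5%, against 47.9% of all genes tested) and none was past 1.5-fold, with a median log2 ratio of 0.36. Ube2e1 stood at 778 FPKM in CR and 582 FPKM in control, Ube2e3 at 354 FPKM in CR and 257 FPKM in control, and Ube2d2 at 302 FPKM in CR and 220.1 FPKM in control. Ube2l3, which serves ligases of the HECT and parkin type, stood at 680.4 FPKM in CR and 609.8 FPKM in control. The exception was Ube2d1, at 587 FPKM in CR and 782 FPKM in control. Reads of some of these genes may be shared with others. Windows of 76 bases occurring in another gene made up 58.2% of the Ube2l3 transcript, 50.3% of that of Ube2e1 and 15.3% of that of Ube2d2. For Ube2e1 they lie mainly in Nkiras1 on the opposite strand, which stood at 1423 FPKM in CR and 868 FPKM in control.

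E2 genes that build degradation-signal chains lay on both sides of 0. Ube2k, which extends such chains, stood at 667 FPKM in CR and 448 FPKM in control (1.49-fold). Ube2g2 (chr10:77085053-77108735, mm9), the E2 of ubiquitination at the endoplasmic reticulum, was the single E2 gene past 1.5-fold on the lower side, at 501 FPKM in CR and 838 FPKM in control (1.67-fold lower). Ube2r2, which works with cullin ligases, stood at 580.4 FPKM in CR and 563 FPKM in control, and Ube2j1, of the endoplasmic reticulum, at 191 FPKM in CR and 201 FPKM in control. The pair that makes non-degradative chains differed little: Ube2n stood at 619 FPKM in CR and 555 FPKM in control, and its partner Ube2v1 at 653 FPKM in CR and 689 FPKM in control, with 89.7% of Ube2v1 windows shared with another gene. Ube2a and Ube2b, the Rad6-type E2 genes, had log2 ratios of -0.15 and 0.02.

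The remaining E2 genes were mostly low or within 1.5-fold. Ube2t (chr1:136859154-136870714, mm9) stood at 192 FPKM in CR and 68.1 FPKM in control (2.80-fold). Of a list of 9 markers of dividing cells, 1 was listed among the genes used here, Aurka, at 65.5 FPKM in CR and 96.8 FPKM in control. Ube2l6, the E2 of the interferon-induced modifier ISG15, stood at 82.5 FPKM in CR and 44.1 FPKM in control (1.85-fold). The interferon-response genes Ifit3 and Irf7 stood at 69.8 and 41.9 FPKM in CR, against 24.1 and 0 FPKM in control. All 3 genes listed of 6 on that marker list were higher in CR, as were 47.9% of all genes tested. Whether they bear on Ube2l6 was not tested. Ube2cbp was listed at 88.2 FPKM in CR and 0 in control, and so has no fold. Ube2h and Ube2o, known from red cell maturation, had log2 ratios of -0.19 and -0.26. Ube2z, which carries ubiquitin and FAT10, had one of -0.26 and Ube2g1, an E2 of muscle, one of -0.29.

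**Figure D4:**
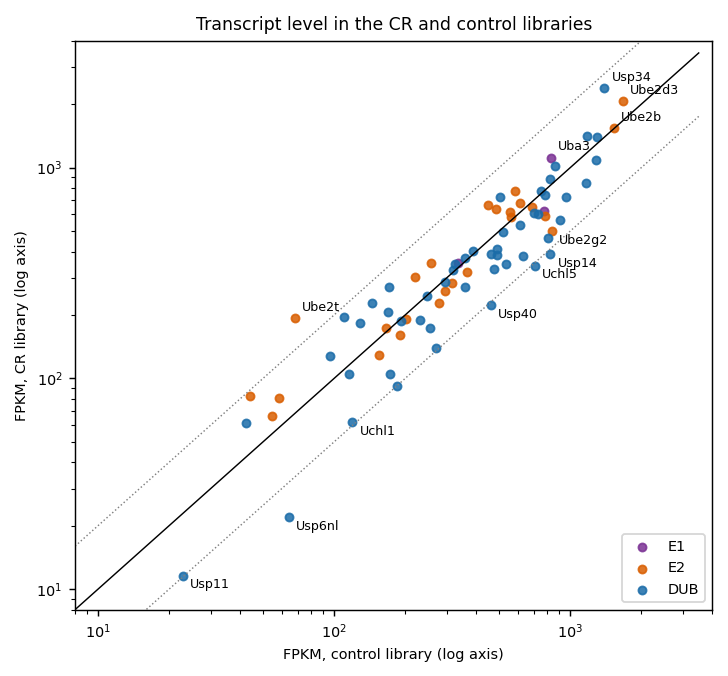
FPKM of each member in the CR library (y axis, log scale) against the control library (x axis, log scale), coloured by class, with the solid line at equality and dotted lines at 2-fold. Ube2cbp, at 0 in control, and 3 members not reported singly are not drawn. Most points lie between the dotted lines, with Usp34, Ube2d3 and Ube2b the most abundant genes and Usp11 the least.

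The clearest pair among the DUB genes was the DUBs that bind the proteasome reversibly. Usp14, which trims chains on substrates held at the cap, stood at 387 FPKM in CR and 822 FPKM in control (2.12-fold lower). Uchl5 (chr1:145624408-145654596, mm9), its counterpart on another cap subunit, stood at 343 FPKM in CR and 707 FPKM in control (2.06-fold lower). Psmd14, the cap subunit that is itself a DUB and whose symbol the rule does not take, stood at 788 FPKM in CR and 911 FPKM in control, a log2 ratio of -0.21. Thus both loosely bound DUBs were lower by similar factors and the built-in one was lower by less. The Usp14 value is less certain: 45.0% of the 76-base windows of its longest transcript also occur in transcripts of another gene, chiefly Thoc1, which overlaps it on the opposite strand, while for Uchl5 the share was 0%. Thoc1 stood at 315 FPKM in CR and 338 FPKM in control.

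Other genes counted as DUBs also stood near or past 2-fold on the lower side. Usp40 (chr1:89841608-89905126, mm9) stood at 222 FPKM in CR and 462 FPKM in control (2.08-fold lower). Usp54 stood at 92.5 FPKM in CR and 185 FPKM in control, and Otud1, an OTU-type DUB, at 139 FPKM in CR and 269 FPKM in control. Usp6nl, the GTPase-activating protein, stood at 22.0 FPKM in CR and 64.4 FPKM in control (2.85-fold lower). Uchl1, abundant in neurons, stood at 61.9 FPKM in CR and 119 FPKM in control. Nerve and Schwann cell markers did not share that direction: all 6 listed of 9 were higher in CR, as were 47.9% of all genes tested. They summed to 1048 FPKM in CR and 686 FPKM in control, with S100b listed at 42.3 FPKM in CR and 0 in control. Usp11, the least abundant DUB gene, stood at 11.6 FPKM in CR and 22.8 FPKM in control.

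Genes known from reports on muscle wasting in rats or mice were also set side by side. Usp19, a DUB anchored at the endoplasmic reticulum, stood at 463 FPKM in CR and 804 FPKM in control (1.73-fold lower), and Usp14 was lower as given above. Ube2b, the E2 best known from atrophying rat muscle, was nearly level, at 1543 FPKM in CR and 1527 FPKM in control. Usp2, a DUB under circadian control, stood at 1087 FPKM in CR and 1290.2 FPKM in control. Usp1, a DUB of DNA repair, stood at 183 FPKM in CR and 129 FPKM in control. Of the 8 genes of this list, 5 had ratios below 0 (62.5%, against 52.1% of all genes tested), with a median log2 ratio of -0.16. Those at least 1.5-fold lower were the 2 DUB genes Usp14 and Usp19 (25.0%, against 18.8%), and none was that much higher. These shares are near those of all genes. This list was drawn up with earlier results of these data known.

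The DUB genes with the highest ratios differ in their known roles. Usp34 (chr11:23206895-23390574, mm9), which acts on the Wnt regulator axin, was the most abundant DUB gene in both libraries, at 2382 FPKM in CR and 1393 FPKM in control (1.71-fold). Its locus overlaps Ahsa2 on the opposite strand, at 215 FPKM in CR and 174 FPKM in control, and 16.4% of its windows are shared. Usp3 and Usp22, which remove ubiquitin from histones, stood at 196 and 270.3 FPKM in CR, against 111 and 171 FPKM in control. Usp37, a DUB of the cell cycle, stood at 228 FPKM in CR and 145 FPKM in control. Usp15, a DUB of the transforming growth factor receptor, stood at 725 FPKM in CR and 503 FPKM in control. The chromatin list as a whole did not share this direction, with 4 of 9 genes above 0 (44.4%, against 47.9% of all genes tested) and a median log2 ratio of -0.04, and Usp28, also in it, stood at 567 FPKM in CR and 909 FPKM in control (1.60-fold lower).

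Of the 8 DUB genes highest in mean FPKM, 7 were within 1.5-fold, Usp34 being the exception. Among all genes with a mean of 100 FPKM or more, 13.4% were at least 1.5-fold higher and 13.5% lower. The DUB genes next in level, down to Usp14, were mixed. Uchl3, Usp16, Otud4, Otud7b and Usp15 were within 1.5-fold, while Usp28, Usp19 and Usp14 were past it on the lower side, as given above. Usp47, of base excision repair, stood at 1396 FPKM in CR and 1302 FPKM in control, Otud6b at 1420.4 FPKM in CR and 1175 FPKM in control, and Usp9x, with many substrates, at 1020.4 FPKM in CR and 861 FPKM in control. Usp24 stood at 883 FPKM in CR and 824 FPKM in control. Usp25, which has a muscle isoform, was lower, at 848 FPKM in CR and 1161 FPKM in control. Usp5 and Usp13, which take apart unanchored chains, had log2 ratios of -0.40 each, with Usp13 at 728 FPKM in CR and 963 FPKM in control. Among DUBs of mitochondria and endosomes, Usp30, which opposes parkin on the outer mitochondrial membrane, stood at 174 FPKM in CR and 254 FPKM in control, and Usp8, which sorts receptors, at 536 FPKM in CR and 613 FPKM in control. By family, the median log2 ratio was -0.22 over 40 USP genes, -0.45 over 4 UCH genes and -0.17 over 6 OTUD genes. The UCH genes were split, with 2 above 0 and 2 below, so their median describes none of them. Uchl3 was level, at 774 FPKM in CR and 752 FPKM in control, but shares 15% of its windows, mainly with its close paralog Uchl4.

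DUB genes that the symbol rule does not take mostly had ratios below 0 as well. Of 18 such genes 14 were below 0 (77.8%, against 52.1% of all genes tested), 7 were at least 1.5-fold lower (38.9%, against 18.8%) and 1 was at least 1.5-fold higher (5.56%, against 16.4%), with a median log2 ratio of -0.36. Tnfaip3 and Yod1 count among the lower ones only because they were listed at 0 in CR, against 155 and 30.1 FPKM in control, and they have no fold. Over the 16 genes above 0 in both libraries the median was -0.34, and 5 were at least 1.5-fold lower (31.2%, against 15.6% of all such genes). Of these 16, Atxn3, the DUB altered in Machado-Joseph disease, was at least 2-fold lower, at 44.7 FPKM in CR and 91.7 FPKM in control. Cops5, which removes NEDD8 from cullins, had the highest mean of both libraries, at 1206 FPKM in CR and 878 FPKM in control. The 11 E1 and E2 genes outside the rule did not lean clearly to the higher side, with a median log2 ratio of 0.01. Of these, 6 were above 0 (54.5%, against 47.9% of all genes tested), or 5 after the rescaling (45.5%, against 42.6%). None was at least 2-fold higher, and 2 were at least 2-fold lower (18.2%, against 10.7% of all genes tested). These were the giant E2 Birc6, at 568 FPKM in CR and 1330.2 FPKM in control, and the E1-like Mocs3, at 13.6 FPKM in CR and 32.6 FPKM in control. Tsg101, an inactive E2 relative of endosome sorting with the highest mean of both libraries among these 11, stood at 1020.0 FPKM in CR and 1148 FPKM in control. Of 12 proteases of ubiquitin-like proteins, Senp8 was the 1 at least 2-fold apart, on the higher side (8.33%, against 8.01% of all genes tested). None was that much lower, against 10.7% of all genes tested. The ubiquitin gene Rps27a stood at 158 FPKM in CR and 111 FPKM in control. It has a ribosomal part and many pseudogenes, so its value is uncertain.

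Transcript length moved with the class contrast. E2 transcripts were shorter, with a median of 2755 bases, against 4732 bases for DUB transcripts, and median ratios in the whole table declined with length. All genes in the shortest quintile had a median log2 ratio of 0.15, and those in the longest quintile one of -0.14. Within each quintile of length the E2 median lay above the DUB median, narrowly so in the longest. In the shortest quintile it was 0.42 over 7 E2 genes against -0.05 over 4 DUB genes, and in the next to longest quintile -0.02 over 6 E2 genes against -0.27 over 18 DUB genes. In the longest quintile the medians were 0.07 over 2 E2 genes and 0.05 over 18 DUB genes. With the median of the gene's length decile subtracted, the difference between the classes was 0.33, beside 0.35 without. By GC content of the transcript and by mean FPKM the order held in 4 of 5 quintiles each and turned in 1. In the next to highest quintile of GC content the medians were -0.41 over 2 E2 genes and -0.16 over 8 DUB genes. In the middle quintile of mean FPKM they were -0.18 over 5 E2 genes and -0.04 over 9 DUB genes. The part of length, GC content or level in the class difference was not tested further.

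**Figure D5:**
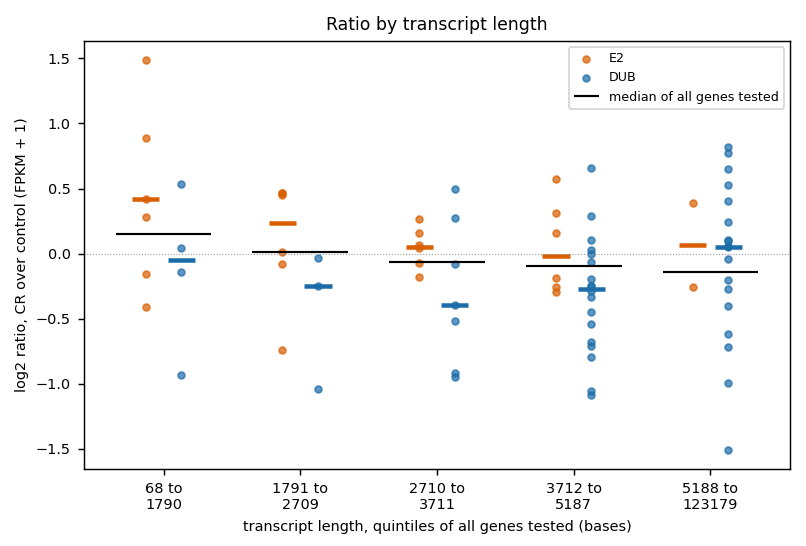
Log2 ratio of CR over control (y axis) of E2 and DUB genes by quintiles of transcript length of all genes tested (x axis, bases), with coloured bars at class medians and black bars at the median of all genes. Ube2cbp counts in the E2 median of the shortest quintile but is not drawn. The black bars descend from 0.15 to -0.14 with length, and the E2 bar is above the DUB bar in all 5 quintiles, by little in the longest, which holds 2 E2 genes.

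Markers of other cell and fibre types differed in level between the libraries. Skeletal muscle genes such as Acta1 and Ckm were abundant in both, in keeping with the label. White adipocyte markers were at least 2-fold higher in CR for 8 of 9 (8.01% of all genes tested passed that mark), summing to 25314 FPKM in CR and 7194 FPKM in control, and slow-fibre markers for 7 of 7, summing to 121919 FPKM in CR and 14039 FPKM in control. Red cell markers summed to 51220 FPKM in CR and 18703 FPKM in control over the 3 listed of 5. Most of that sum was Hba-a1, at 48110 FPKM in CR and 15925 FPKM in control, while Hbb-b2 was level, at 2598 FPKM in CR and 2514.0 FPKM in control. The part of these differences in the ratios of E2 and DUB genes was not tested. In bulk tissue, more cells of a type and more RNA per cell cannot be told apart.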

How the data were processed

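Per the labels' protocols, poly(A) RNA from 10 µg of total RNA was broken to about 200 nt and copied with random primers into paired-end libraries by a kit that, as described, does not mark strand. Reads were processed by the authors with TopHat 1.2.0, Cufflinks and Cuffdiff on mm9, per the submitters' processing notes. Their options, annotation and pooling are not stated in the sources. The deposited table gives FPKM for each locus, per the file headers, with 1 added, as inferred from the lowest value. That 1 was subtracted. Of 23672 loci, the 234 with several symbols were set aside and loci of a symbol were summed. Log2((CR FPKM + 1)/(control FPKM + 1)) was computed for the 10533 genes whose mean reached 1 FPKM, and all 82 members passed. With 1 library per group no test was run, and medians, counts at 2-fold and 1.5-fold and the same values over all genes are given. The calculation was tested on simulated data.

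Transcript lengths, GC content and 76-base windows shared between genes came from GENCODE M21 by symbol (found for 100% of members), and promoters from RefSeq. Coordinates of loci are mm9 from the file. Python 3.11.15, numpy 2.4.6, pandas 2.3.3 and matplotlib 3.10.9 were used. The members and lists were chosen with earlier results of these data known. Some genes are not reported singly here, but members among them count in the totals. Otherwise the text names all E1 genes, members past 2-fold or listed at 0, the 8 most abundant and the 6 highest and 6 lowest ratios per class (mean of 100 FPKM or more), and the wasting list. In the list of DUB genes and that of E1 and E2 genes outside the rule it names genes past 2-fold and the most abundant one. In the list of proteases of ubiquitin-like proteins it names only the gene past 2-fold. Other genes named were chosen after their values were seen.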

Additional observations from a re-analysis of the deposited data

How the results depend on the processing

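Each result was recomputed under 11 other settings and 2 more chosen after the data were seen (GC deciles, and leaving out the 17 members with over 10% of windows shared). The E2 median stayed above 0 (0.04 to 0.20), the DUB median below 0 (-0.27 to -0.12) and their difference between 0.21 and 0.36 in all 13. A value was taken as kept within 0.1 on the log2 scale, and a count within 1.5 times. Requiring a mean of 100 FPKM made the E2 median 0.043 and the difference 0.21, with 1 member at least 2-fold higher and 1 E2 gene at least 1.5-fold higher, since fewer genes pass. Members at least 2-fold higher numbered 1 when genes listed at 0 were left out and 1 when members that the class name does not describe were left out, as either removes Ube2cbp. The latter setting also left 3 members at least 2-fold lower and 11 DUB genes at least 1.5-fold lower. With equal sums without the 50 most abundant genes, 7 members were at least 2-fold lower and 2 DUB genes at least 1.5-fold higher. This scaling lowers the ratios of all genes, whose shares at these thresholds were not counted. The other results kept their direction and size. No paired analysis was possible because each group has 1 library. Depth is unknown, so no counting interval can be given.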

Other observations

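Loci that merge a member with another gene were not counted, and each gives a value for both genes together. The locus of Usp49, a DUB of histones, and Med20 stood at 226 FPKM in CR and 455 FPKM in control, just past 2-fold lower in CR. The locus of Ube2m, the other NEDD8 E2, and Chmp2a stood at 1134 FPKM in CR and 1049.9 FPKM in control. The locus of Ube2j2, an E2 of the endoplasmic reticulum, and Gm5801 stood at 818 FPKM in CR and 807 FPKM in control. The locus of Uba7, the ISG15 E1, and Cdh29 stood at 121 FPKM in CR and 119 FPKM in control.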
